A study of Mus musculus with 8 samples.

Results

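The genes described here were 10 genes of the circadian clock and its outputs, followed in the livers of mice that lack Snd1: the repressors Nr1d1, Nr1d2, Per1, Per2, Per3 and Ciart, the activator Clock, and the output genes Dbp, Tef and Usp2. They were chosen by name, with earlier results of these data known. All probes that carry one of these symbols in the array's annotation were taken, which gave 21 of 25697 probes. Of these, 16 passed the detection filter (a detection p under 0.05 on at least 4 of 8 arrays), and every one of the 10 genes had such a probe, among 8134 genes tested in all. Liver RNA of 4 Snd1 KO mice and 4 WT mice was hybridised to Illumina bead arrays (MouseRef-8 v2.0), each animal on an array of its own, and the question was which liver transcripts depend on Snd1, an RNA-binding protein with nuclease-like repeats and a Tudor domain. The KO animals were homozygous for a germline deletion of exon 1 of Snd1, made by crossing mice with a loxP-flanked allele, derived from 129/Sv embryonic stem cells, to mice with Cre under the CAG promoter. The WT animals carried the intact gene. Animals of both genotypes were males of the strain C57BL/6N aged 8 to 12 weeks, and the sample was the left liver lobe, taken near midday from fed animals. The deletion was present in all tissues from the start of development and the KO mice and their livers were smaller, so the liver was not the only organ without Snd1.

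The mammalian clock is a feedback loop. A pair of activators, CLOCK and BMAL1 (encoded by Arntl), bind E-boxes in the genes of their own repressors, the period and cryptochrome proteins, which then shut the activators down, while the nuclear receptors REV-ERB alpha and beta (encoded by Nr1d1 and Nr1d2) repress Arntl and other genes. Outputs such as Dbp and Tef, which encode transcription factors of the PAR bZIP family, pass the rhythm on to metabolic genes through D-boxes, and in liver the loop is also reset by feeding, glucocorticoids and body temperature. All livers came from about the same time of day, and no source gives the hour for each animal, so a shift in the timing of a rhythm and a change of its level cannot be told apart in these data. In whole tissue fewer cells that express a gene and less RNA per cell cannot be told apart either.

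The sequences just upstream of the start site show how the members differ in the letters the clock proteins recognise. They are shown for both called genes, Nr1d1 and Usp2, and for Ciart and Per3, in which a single upstream window held more than 1 match. Each run is the 250 bases before the start site in the RefSeq annotation of the mouse assembly GRCm38.p6, written 5′ to 3′ along the gene's strand, and capitals mark matches to the E-box CACGTG, the related CACGTT, the D-box TTATGTAA or TTACGTAA, or the REV-ERB half-site TAGGTCA or TGGGTCA, searched on both strands. Nr1d1 lay on the minus strand (chr11:98775378-98775627), Usp2 on the plus strand (chr9:44084670-44084919), Ciart on the minus strand (chr3:95882229-95882478) and Per3 on the minus strand (chr4:151044666-151044915).
Nr1d1: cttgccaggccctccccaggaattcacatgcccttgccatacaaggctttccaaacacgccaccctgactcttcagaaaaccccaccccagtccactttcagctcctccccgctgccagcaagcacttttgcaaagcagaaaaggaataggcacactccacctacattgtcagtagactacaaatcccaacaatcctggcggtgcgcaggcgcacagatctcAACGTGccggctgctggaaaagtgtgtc
Usp2: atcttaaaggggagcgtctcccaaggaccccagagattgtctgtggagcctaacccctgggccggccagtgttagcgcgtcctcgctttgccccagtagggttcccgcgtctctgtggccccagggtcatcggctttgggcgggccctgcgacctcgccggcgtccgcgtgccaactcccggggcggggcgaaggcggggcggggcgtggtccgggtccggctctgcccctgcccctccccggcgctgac
Ciart: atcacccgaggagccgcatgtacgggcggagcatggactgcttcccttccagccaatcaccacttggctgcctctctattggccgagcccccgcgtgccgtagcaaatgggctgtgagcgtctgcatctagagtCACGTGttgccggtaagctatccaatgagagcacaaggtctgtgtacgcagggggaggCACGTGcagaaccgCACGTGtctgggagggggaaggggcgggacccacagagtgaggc
Per3: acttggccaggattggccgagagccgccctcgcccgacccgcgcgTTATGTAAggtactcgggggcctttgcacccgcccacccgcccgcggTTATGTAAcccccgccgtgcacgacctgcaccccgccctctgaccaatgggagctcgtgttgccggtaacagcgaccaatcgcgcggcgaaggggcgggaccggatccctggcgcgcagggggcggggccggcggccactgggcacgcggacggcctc

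The upstream sequence of Nr1d1 held a single match, CACGTT read on the other strand as AACGTG, 28 to 23 bases before the start. The sequence of Usp2 held no match to any of the 4 patterns. Ciart had 3 E-boxes, at 116 to 111, 58 to 53 and 44 to 39 bases before the start, and 20 of 32851 upstream sequences (0.0609%) had at least 3. Per3 had 2 D-boxes, and 7 of 32851 sequences (0.0213%) had at least 2. The E-box occurred in 6.02% of all upstream sequences of this length, CACGTT in 3.85%, the D-box in 0.931% and the half-site in 5.38%. Of the other members Per1 had an E-box in 1 of its upstream windows and Tef an E-box in each of 2 windows, Nr1d2, Dbp and Clock had no match in these windows, and Per2 had no entry in the table used. A match is only a description of the letters in these windows.

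Of the 10 clock genes, 1 rose in KO livers (Usp2), 1 fell (Nr1d1) and 8 did not pass limma's test at an adjusted p under 0.05. The background was 1.18% of all 8134 genes called higher (96) and 1.36% called lower (111). At an unadjusted p under 0.05, 7 of the 10 were counted, against 17.4% of all genes (1415), and for 3 of the 10 (Nr1d1, Usp2 and Clock) the values of the 2 genotypes did not overlap, against 10.8% of all genes (875). The log2 fold change, KO minus WT, was above 0 for 8 members and below 0 for Nr1d1 and Clock, with a median of 0.44 over the 10 and of −0.0014 over all genes, whose quartiles were −0.15 and 0.15. The members and the lists below were chosen with earlier results of these data known. Their shares beside those over all genes are therefore a description and no test. Levels below are normalized log2 intensities and levels of different probes cannot be set against each other.

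**Figure D1:**
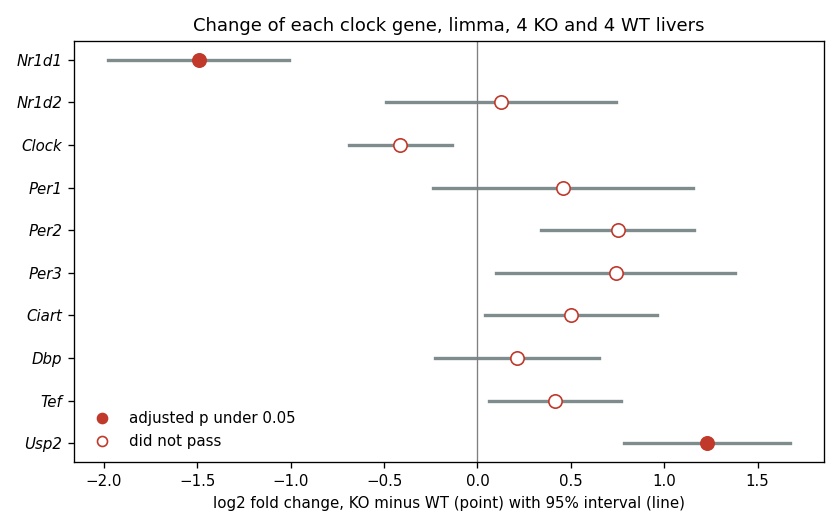
Log2 fold change of each clock gene, KO minus WT, with its 95% interval (line), from limma on 4 KO and 4 WT livers; filled points passed an adjusted p under 0.05 over all 8134 genes. Nr1d1 (−1.49) and Usp2 (1.23) are filled, and the intervals of Nr1d2, Per1 and Dbp include 0.

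The Snd1 probe read 4.20 ± 0.038 in KO livers, below detection on all 4 arrays, and 6.81 ± 0.051 in WT livers (SD, n = 4 each), which was at least 4.94-fold lower in KO (limma, adjusted p = 2.98e-07). Which exon this probe reads is not stated in the sources. Before normalization the mean intensity was 215, 290, 281 and 223 on KO 1 to KO 4, against 262 to 283 on the WT arrays, and the first principal component, with 44.5% of the variance, spread the KO arrays (−7.40, 6.79, 21.2 and 32.4) more than the WT arrays (−14.9 to −10.6). None of the markers of hepatocytes or of 8 other cell types that passed the filter was called. Only 1 marker passed it for cholangiocytes, lymphocytes, pancreas and adipose tissue each, and 2 for neutrophils. For the 5 endothelial markers the summed linear signal was 2337 to 2734 in KO and 2239 to 2365 in WT. The summed linear signal of the hepatocyte markers (5 of 6 detected, Tat on no array) was 63270 to 68850 in KO and 62168 to 66953 in WT, and the sum of the stellate cell markers (4 of 5 above the filter) was 2671 to 3990 in KO and 2590 to 2817 in WT. Of 5 pancreas markers 4 were detected on no array, and the other, Cela1, was not called. The summed linear signal of the 5 pancreas markers was 195 to 548 in KO and 563 to 702 in WT. The part of this signal in the values of the clock genes was not tested.

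Among the repressors, Nr1d1, which encodes REV-ERB alpha, was the member that fell. Its level was 6.89, 6.18, 6.03 and 5.87 on KO 1 to KO 4, against 7.77, 8.08, 7.65 and 7.44 on WT 1 to WT 4. Every KO liver was below every WT liver, and KO 1 was the KO liver nearest to WT. The log2 fold change was −1.49 ± 0.22 (SE, 95% interval −1.98 to −1.01), or 2.82-fold lower in KO, with limma's adjusted p = 0.00868. In the intensities as deposited, before any correction, Nr1d1 read 157, 159, 150 and 121 in KO and 308, 341, 272 and 247 in WT. A second Nr1d1 probe gave 5.75, 5.22, 5.02 and 5.12 in KO livers and 6.44, 6.71, 6.33 and 5.92 in WT livers, again with no overlap (log2 fold change −1.08, limma adjusted p = 0.0219 in a fit over all 10945 kept probes, of which 2.52% were called). The size of the change depended on the background correction: when it was omitted, or when the authors' processed table was used, the first probe gave −0.94 and was still called (limma adjusted p = 0.0246 in both).

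Nr1d2, which encodes the closely related REV-ERB beta, did not share this pattern. It read 6.18, 6.88, 7.49 and 7.66 in KO livers and 6.74, 6.86, 6.95 and 7.15 in WT livers. The KO values reached both below and above all WT values, with a spread of 0.67 (SD, n = 4) in KO and 0.17 in WT. The log2 fold change was 0.13 ± 0.28 (SE, 95% interval −0.49 to 0.74; limma adjusted p = 0.862), and it was −0.017 without KO 3 and −0.077 without KO 4. The change of Nr1d1 minus that of Nr1d2 was −1.62, which did not pass a test of the difference itself (exact permutation test over arrays, two-sided p = 0.0857, and 0.129 after adjustment over the 3 such differences tested, all chosen after their values were seen; the smallest p that 4 against 4 arrays allow is 0.0286).

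**Figure D2:**
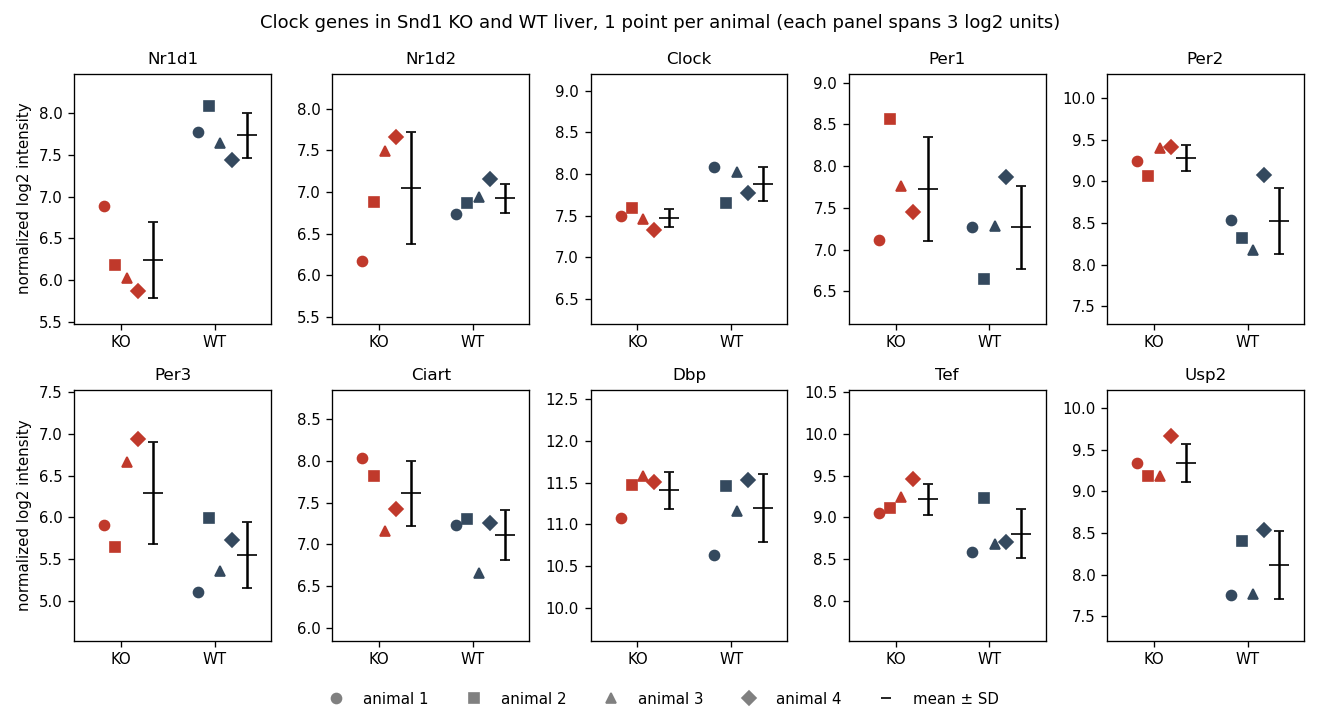
Normalized log2 intensity of each clock gene on each array, KO left and WT right, with the mean ± SD of each group (n = 4). There is 1 marker shape per animal number, and the labels do not say whether shared numbers pair animals. Each panel spans the same 3 log2 units; Nr1d1, Usp2 and Clock separate the genotypes, and Nr1d2 and Per1 spread widely among KO livers.

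The period genes encode the repressors that bind the cryptochromes. Per2 read 9.24, 9.07, 9.39 and 9.41 in KO livers and 8.54, 8.32, 8.17 and 9.07 in WT livers. WT 4 was the only WT liver to reach the KO range, at the level of KO 2. Its log2 fold change was 0.75 ± 0.18 (SE, 95% interval 0.34 to 1.16), or 1.68-fold, and it did not pass (limma adjusted p = 0.0628). A second Per2 probe gave 8.76, 8.51, 8.70 and 8.64 in KO and 7.88, 7.62, 7.61 and 8.33 in WT, where every KO value was above every WT value (0.79, limma adjusted p = 0.0315 over all kept probes). The call thus depended on the probe: it was made with the mean of both probes (0.77, limma adjusted p = 0.0420), and also with the first probe when WT 4 was left out (0.93, limma adjusted p = 0.0237).

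Per3 and Per1 varied more between animals of 1 genotype. Per3 was at 5.91, 5.65, 6.66 and 6.94 in KO and 5.11, 5.99, 5.36 and 5.73 in WT, so that KO 3 and KO 4 lay above all WT livers and KO 1 and KO 2 lay within their range (log2 fold change 0.74 ± 0.29 SE, limma adjusted p = 0.219), and the value was 0.35 without background correction. Per1, which responds rapidly to glucocorticoids and other signals, was at 7.12, 8.57, 7.77 and 7.45 in KO and 7.27, 6.65, 7.28 and 7.87 in WT. Its highest value was that of KO 2 and its lowest that of WT 2, with the other 6 livers mixed between them (0.46 ± 0.31 SE, 95% interval −0.24 to 1.15, limma adjusted p = 0.487), and the value was 0.18 without KO 2 and 0.25 without WT 2. The second Per1 probe put the animals in nearly the same places (5.87, 7.004, 6.26 and 6.19 in KO, against 5.93, 5.35, 5.84 and 6.37 in WT). The change of Per2 minus that of Per1 was 0.29 (exact permutation test, two-sided p = 0.514).

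Ciart, also called Chrono, encodes a repressor that binds BMAL1 and that is known as a strongly rhythmic gene in liver; its upstream sequence, given above, held 3 E-boxes. It read 8.04, 7.82, 7.16 and 7.43 in KO livers and 7.23, 7.30, 6.66 and 7.25 in WT livers. KO 3 was the only KO liver within the WT range, and WT 3 lay well below the other WT livers. Its log2 fold change was 0.50 ± 0.21 (SE, 95% interval 0.042 to 0.96, limma adjusted p = 0.243), and the second Ciart probe gave 0.54.

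Clock encodes the activator that pairs with BMAL1 and was the other member with a value below 0. It read 7.49, 7.60, 7.46 and 7.33 in KO livers and 8.08, 7.66, 8.02 and 7.77 in WT livers. All KO values were below all WT values, although KO 2 and WT 2 lay close together. Its log2 fold change was −0.41 ± 0.13 (SE, 95% interval −0.69 to −0.13), a 1.33-fold difference that did not pass (limma adjusted p = 0.122). Of 2 further Clock probes, 1 was detected on 3 arrays and 1 on none, and neither passed the filter.

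Among the outputs Usp2 rose. It encodes a deubiquitinase, an enzyme that removes ubiquitin from proteins, and its transcript is rhythmic in many tissues. It read 9.34, 9.18, 9.19 and 9.67 in KO livers and 7.75, 8.41, 7.77 and 8.53 in WT livers. Every KO liver was above every WT liver, and the WT livers fell into a lower pair (WT 1 and WT 3) and a higher pair (WT 2 and WT 4). The log2 fold change was 1.23 ± 0.20 (SE, 95% interval 0.79 to 1.67), or 2.34-fold, with limma's adjusted p = 0.0158, and the intensities as deposited were 540, 769, 748 and 705 in KO against 305, 408, 289 and 453 in WT. The call was lost without WT 3 (1.11, limma adjusted p = 0.0612). Both other Usp2 probes were dim, each detected on all 4 KO arrays and on 1 WT array, and had smaller log2 fold changes of 0.52 and 0.39 that did not pass (limma adjusted p = 0.0608 and 0.192 over all kept probes). Both passed the filter through the KO arrays, where they are high, so neither they nor the mean of the 3 probes (0.71) is support for the rise.

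**Figure D3:**
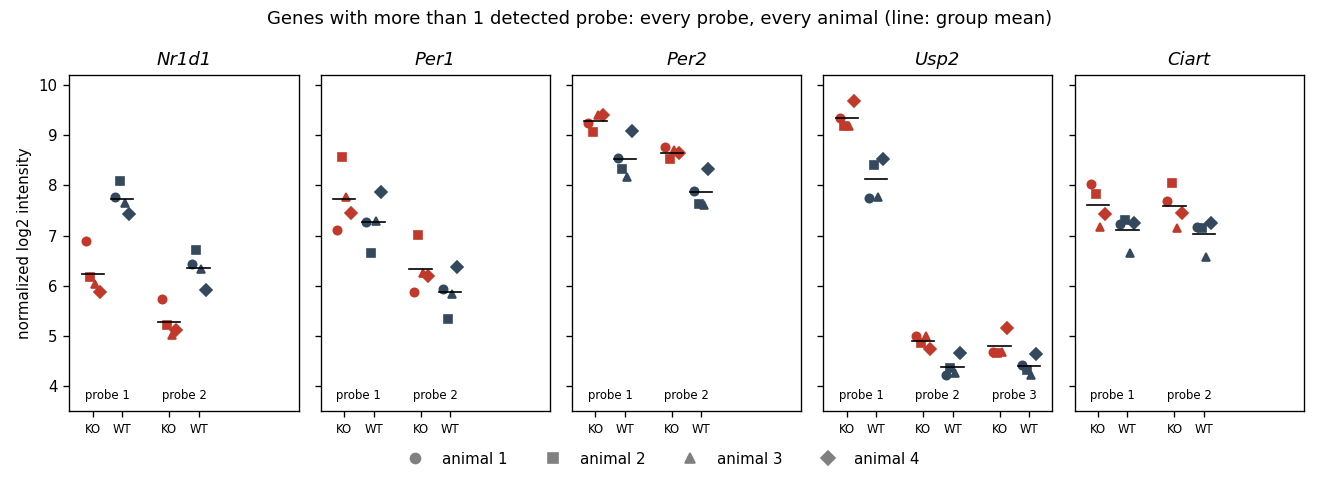
Every probe that passed the filter for the 5 members with more than 1 such probe: normalized log2 intensity on each array, KO left of WT within a probe, with a line at the group mean. Both Nr1d1 probes are lower in all KO livers, both Per2 probes have higher KO means, and both further Usp2 probes lie near 4 to 5 with small differences; heights of different probes are not comparable.

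Dbp and Tef encode the related PAR bZIP transcription factors. Dbp, one of the most strongly rhythmic transcripts of mouse liver, read 11.08, 11.47, 11.58 and 11.51 in KO and 10.63, 11.46, 11.15 and 11.53 in WT. The groups overlapped, with the lowest value in WT 1 (log2 fold change 0.21 ± 0.20 SE, 95% interval −0.22 to 0.65, limma adjusted p = 0.626), and the value was 0.027 without WT 1 and 0.016 with median scaling. Tef read 9.05, 9.10, 9.24 and 9.46 in KO and 8.58, 9.23, 8.67 and 8.71 in WT. WT 1, WT 3 and WT 4 were below all KO livers and WT 2 lay among them (0.41 ± 0.16 SE, limma adjusted p = 0.209). The change of Usp2 minus that of Dbp was 1.02, and this difference had the smallest p the design allows (exact permutation test, two-sided p = 0.0286) but did not pass after adjustment over the 3 differences (0.0858).

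The rest of the loop was measured in part. Of 20 further core clock genes 17 were on the array and 9 passed the filter. None of these 9 was called by limma, against 1.18% of all genes called higher and 1.36% called lower. Of the 9, 3 had an unadjusted p under 0.05, against 17.4% of all genes, and the median log2 fold change was 0.22. The members with the lowest p were the casein kinases Csnk1d (−0.40 ± 0.11 SE, limma adjusted p = 0.0965) and Csnk1e (0.30 ± 0.096, limma adjusted p = 0.134), which phosphorylate period proteins, the activating receptor Rora, which binds the same sites as the REV-ERBs (0.63 ± 0.22, limma adjusted p = 0.172), and the repressor Bhlhe40 (−0.47 ± 0.23, limma adjusted p = 0.317). On its brightest probe Csnk1d was lower in every KO liver (6.76 to 7.09) than in any WT liver (7.16 to 7.37). Csnk1e was higher on its brightest probe in every KO liver (6.15 to 6.30) than in any WT liver (5.87 to 5.98). Over all genes 10.8% did not overlap. Further kept Csnk1d probes were at −0.25 without overlap and at −0.19, −0.20 and −0.093 with overlap. The second Csnk1e probe (0.27) overlapped. With the mean of a gene's kept probes Csnk1d was at −0.23 (limma adjusted p = 0.281) and Csnk1e at 0.28 (limma adjusted p = 0.179). Rora was called only when KO 1 was left out or with array weights (0.83, limma adjusted p = 0.0277 without KO 1). Arntl, Npas2, Cry1, Hlf, Arntl2, Bhlhe41, Rorb and Fbxl21 were below the filter. Arntl, Npas2, Cry1, Arntl2 and Bhlhe41 were detected on none of the 8 arrays, so no comparison was possible for the partner of Clock.

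Of 20 clock output genes of liver, 15 were measured, and 1 of them fell, against 1.36% of all genes called lower: Elovl3, a fatty acid elongase. It read 6.51, 5.78, 5.34 and 6.06 in KO livers and 7.38, 7.22, 7.70 and 7.22 in WT livers. All KO livers were below all WT livers (log2 fold change −1.46 ± 0.22 SE, limma adjusted p = 0.0105), the value was −0.83 without background correction, and the call was lost without WT 3 (−1.35, limma adjusted p = 0.0542). The vasopressin receptor Avpr1a (−0.47, limma adjusted p = 0.183), the liver glycogen synthase Gys2 (0.76, limma adjusted p = 0.185) and the uridine phosphorylase Upp2 (0.91, limma adjusted p = 0.240) did not pass, and the median over the 15 was 0.12. Gys2 was called without KO 2 (1.04, limma adjusted p = 0.0454), and Noct, which encodes nocturnin, without KO 1 (1.21, limma adjusted p = 0.0273).

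Genes that REV-ERB alpha is known to repress in liver were taken as a further list, since Nr1d1 itself fell. Of 12 such genes 7 were measured, and 2 fell and 0 rose, against 1.36% of all genes called lower and 1.18% called higher. The 2 were Elovl3, given above, and Cyp8b1, the sterol hydroxylase that leads to cholic acid. Cyp8b1 read 11.63, 9.55, 9.94 and 10.66 in KO livers and 12.35, 12.36, 12.61 and 12.49 in WT livers. All KO livers were below the WT livers, and KO 1 was nearest to them (log2 fold change −2.01 ± 0.36 SE, limma adjusted p = 0.0221). The call was lost without KO 3, WT 2, WT 3 or WT 4, left out singly (−2.04 to −1.86, limma adjusted p = 0.0688 to 0.0819). Clock, given above, is also on this list, and Insig2, a brake on sterol synthesis, depended on the probe. Its brightest probe was at −0.66 ± 0.22 (limma adjusted p = 0.150) and overlapped between the genotypes. Its other kept probes read 8.31 to 9.01 in KO against 9.33 to 9.998 in WT, and 4.74 to 5.98 in KO against 6.72 to 7.77 in WT, both without overlap and both called (−0.999 and −1.92, limma adjusted p = 0.0238 and 0.00810 over all kept probes). With the mean of the 3 probes Insig2 was at −1.20 (limma adjusted p = 0.0250), and 3 genes of the list were called lower. In all, 6 of the 7 were below 0, with a median of −0.66, against the median of −0.0014 over all genes. The log2 fold changes of these 6 had the same sign as that of Nr1d1. Arntl, Cry1 and Npas2, also on this list, were below the filter. Any link between the genes of this list and Nr1d1 was not tested. The study's supplement lists both Cyp8b1 and Elovl3 among genes altered both on these arrays and in the study's RNA-seq of KO livers. Neither call is therefore independent of the study, and other members may stand in the part of that list not read here. The remaining genes G6pc (−0.73), Avpr1a (−0.47) and Nfil3 (0.30) did not pass.

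Feeding, glucocorticoid and temperature cues can set the liver clock, and 17 of 24 genes known to respond to them were measured. Of these 1 fell, against 1.36% of all genes called lower. It was Cirbp, the cold-inducible RNA-binding protein, which read 5.12, 5.47, 5.84 and 5.22 in KO livers and 6.03, 6.71, 6.80 and 6.40 in WT livers. The highest KO value was below the lowest WT value (log2 fold change −1.07 ± 0.20 SE, limma adjusted p = 0.0248). This call was lost without KO 2, KO 4, WT 2, WT 3 or WT 4, left out singly (−1.10 to −0.97, limma adjusted p = 0.0519 to 0.0878), and without background correction the value was −0.50. The related cold-inducible Rbm3 was at −0.046 (limma adjusted p = 0.937). The heat shock gene Hsph1 was at 1.00 ± 0.32 SE (limma adjusted p = 0.137), the fasting hormone Fgf21 at −0.41 (limma adjusted p = 0.169) and the fasting-induced Igfbp1 at 0.74 (limma adjusted p = 0.210). Fgf21 and Igfbp1 lay near background (Igfbp1 was detected on 3 KO and 2 WT arrays), and without background correction they were at −0.12 and 0.25. Glucocorticoid-induced genes did not pass either: Fkbp5 was at 0.26, Tsc22d3 at 0.20 and Dusp1 at −0.13. The metallothioneins Mt1 (−1.72, limma adjusted p = 0.324) and Mt2 (−0.92, limma adjusted p = 0.435), also on this list, had larger negative values and did not pass. Without KO 1, Igfbp1 (1.04, limma adjusted p = 0.0251) and the metallothionein Mt1 (−2.56, limma adjusted p = 0.0338) were called as well. The median over the 17 was −0.046. These genes and the clock genes came from the same livers, and whether 1 moved the other was not tested.

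**Figure D4:**
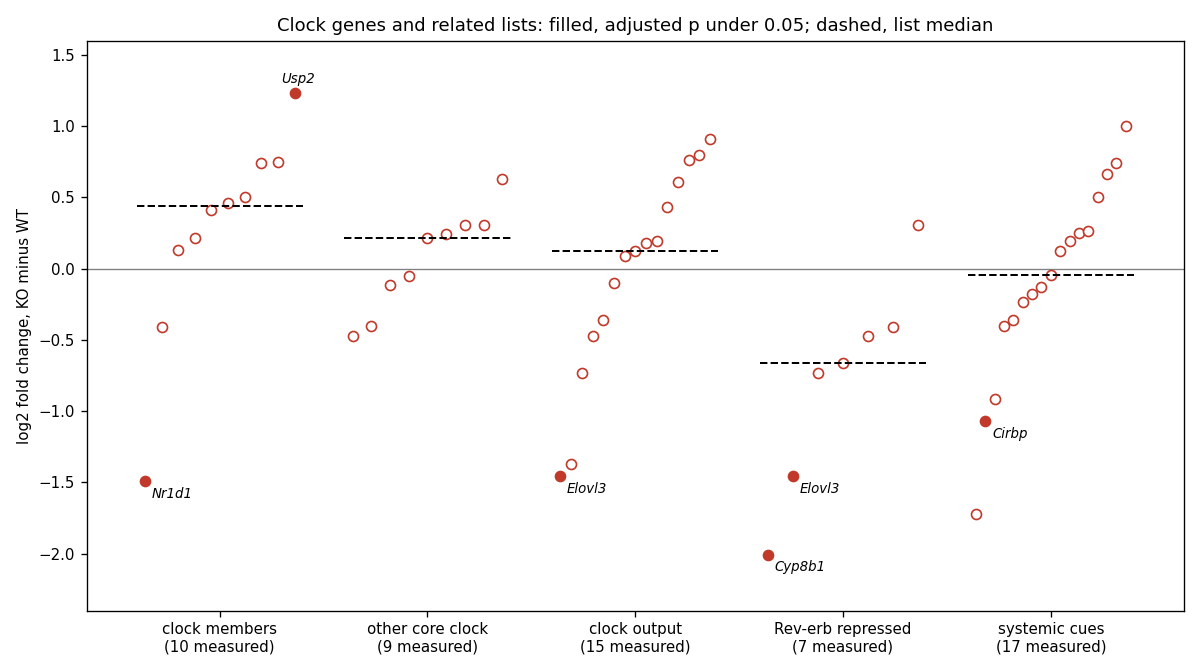
Log2 fold change, KO minus WT, of each measured gene in 5 lists: the 10 clock members, other core clock genes, clock output genes, genes repressed by REV-ERB alpha and genes that respond to systemic cues. Filled points passed limma's adjusted p under 0.05, dashed lines are list medians, and a gene on more than 1 list (Elovl3, Clock and others) appears in each.

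Within a genotype the members also varied from animal to animal, and each pair was related across the 8 arrays after the mean of its genotype was removed. Of 45 pairs, 6 had an unadjusted p under 0.05 and 0 had an adjusted p under 0.05 (exact permutation of arrays within genotypes, 576 orders, Benjamini-Hochberg over the 45 pairs). The lowest p was that of Per3 and Clock, which varied in opposite directions (Pearson's r −0.84, exact permutation p = 0.0017, the smallest possible; adjusted 0.0781; Spearman's rho −0.83, exact permutation p = 0.00347; r −0.82 without the 2 arrays farthest from the median of Per3). Livers with more Per3 than their genotype's mean had less Clock in both genotypes. Clock also varied against Tef (r −0.84, exact permutation p = 0.00694, adjusted 0.0977; rho −0.90, exact permutation p = 0.0122; r −0.66 without the 2 farthest arrays) and against Usp2 (r −0.91, exact permutation p = 0.0451, adjusted 0.339; rho −0.88, exact permutation p = 0.0469; r −0.91 without the 2 farthest arrays). Per3 and Tef varied together (r 0.79, exact permutation p = 0.00694, adjusted 0.0977; rho 0.83, exact permutation p = 0.0208; r 0.80 without the 2 farthest arrays).

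The 2 REV-ERB genes varied in opposite directions. For Nr1d1 and Nr1d2 Pearson's r was −0.89 (exact permutation p = 0.00868, adjusted 0.0977; rho −0.90, exact permutation p = 0.0122; r −0.90 without the 2 arrays farthest from the median of Nr1d1). KO 1 had the highest Nr1d1 and the lowest Nr1d2 of the KO livers, and KO 4 had the lowest Nr1d1 and the highest Nr1d2. The same 2 arrays were the ends of the KO group on the first principal component (−7.40 and 32.4) and the KO arrays with the lowest mean intensity, and the part of either in this relation was not tested. When arrays were scaled by their medians instead of quantiles, r was −0.62 (exact permutation p = 0.207, adjusted 0.547). Nr1d2 and Dbp varied together (r 0.59, exact permutation p = 0.0122, adjusted 0.109; rho 0.64, exact permutation p = 0.0469; r 0.55 without the 2 farthest arrays).

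**Figure D5:**
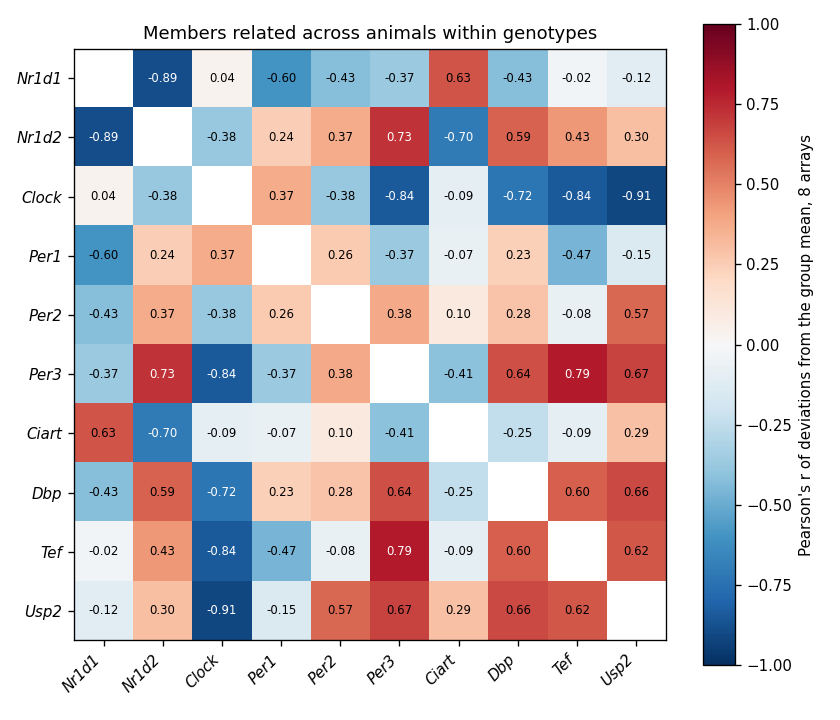
Pearson's r between each pair of members over 8 arrays (4 KO and 4 WT), each gene taken as its deviation from its genotype's mean; red is positive and blue negative. Clock is negative with Per3, Tef, Dbp and Usp2, Nr1d1 is negative with Nr1d2, and no pair passed an adjusted p under 0.05.

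The genes whose levels were most like those of Nr1d1 over the 8 arrays, with the genotype difference left in, were the glutathione transferase Gstp2 (r = 0.975), the proteasome assembly chaperone Psmg2 (0.973), the odorant-binding protein Obp2a (0.972), the oxysterol hydroxylase Cyp7b1 (0.969) and Inhbe, which encodes an inhibin beta subunit made in liver (0.967). Gstp2, Obp2a and Cyp7b1 fell in KO as well (log2 fold changes −1.57, −1.85 and −1.84; without background correction Gstp2 was at −0.80 and Obp2a at −0.71), and Psmg2 (−0.33) and Inhbe (−0.93) did not pass. The study's supplement also lists Gstp2 as lower in KO on these arrays and in its RNA-seq, so this fall is not independent of the study. A row read as Cyp7b1 in that supplement was higher in KO, unlike the value here, and this difference was not resolved. After the genotype means were removed Inhbe was still at r = 0.978 with Nr1d1 and the other 4 at 0.810 to 0.842. Most like Usp2 were Pde4dip (0.981), the squalene epoxidase Sqle (0.965), Arhgef25 (0.964), the zinc finger gene Zfp385b (0.961) and Hspa12b (0.957), of which Zfp385b was called (0.62, limma adjusted p = 0.0265). The Zfp385b call was lost in 8 of 18 alternatives, among them the single omission of KO 3 or of any WT array (limma adjusted p = 0.0506 to 0.0878), and its value was 0.24 without background correction. With 8 arrays and 8134 genes high values of r arise among many genes, and Gstp2 is uncertain because its sequence is close to that of Gstp1.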

How the data were processed

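The authors deposited a table of unnormalized probe intensity, bead-averaged on a linear scale, with a detection p-value per probe and array, and a table of processed intensity that kept the rank order of the first within each array. Per the labels, total RNA was Trizol-extracted and treated to remove DNA. The methods name Chipster and a 2-group test; the scanner software and normalization of the liver arrays are not stated there. The deposited detection p-value ranks a probe among the negative controls.

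In R 4.3.3 with limma 3.58.1, intensities were background-corrected (normexp, control moments inferred from detection p-values, offset 16, which compresses changes of dim probes), quantile-normalized and taken to log2. Quantile normalization cannot show a change of total RNA per cell. Probes with 1 symbol and detection p under 0.05 on at least 4 of 8 arrays were kept (10945 of 25697), and the brightest probe stood for its gene. The genotypes were compared with limma (lmFit, eBayes, two-sided, no covariate), with Benjamini-Hochberg adjustment over 8134 genes and calls under 0.05. The 4 arrays per group were described as biological replicates, and their number limits the precision. No slide or scan date was given. The steps were tested on simulated data.

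The members and lists were chosen with earlier results of these data known. Named genes were Snd1, the 10 members, in each list the called genes or up to 4 of lowest p, and the 5 genes most like Nr1d1 and Usp2. Noct, Mt1, Mt2, G6pc, Nfil3, Rbm3, Fkbp5, Tsc22d3 and Dusp1 were added after their values were seen. Upstream sequences were of RefSeq (GRCm38.p6; 9 of 10 members had an entry). Alternatives were other background corrections, the authors' processed values, median scaling, other detection filters, the mean of a gene's probes, array weights, a replicate block and arrays left out.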

Additional observations from a re-analysis of the deposited data

Results flagged for a closer look

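Ciart on WT 3 stood apart from its group: it read 6.66 on the log2 scale, against 7.23 to 7.30 in the other 3 WT livers, and its gap to the nearest of them was 0.886 of the whole WT range, above Dixon's 95% critical value for 4 samples. The second Ciart probe put WT 3 lowest as well (6.58, against 7.16 to 7.25). It was 1 of 22 groups looked at (11 genes in each genotype), and by chance such a limit is passed in a few percent of groups. Without WT 3 the log2 fold change of Ciart was 0.35 (limma adjusted p = 0.492).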

How the results depend on the processing

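Nr1d1 was called in all 18 alternatives (−1.72 to −0.94, limma adjusted p 4.30e-05 to 0.0492; −1.72 to −1.38 with 1 array left out) and Snd1 in all 17 that measured it. Usp2 kept its direction in 18 and its call in 16, and was not called without the detection filter (1.23, limma adjusted p = 0.0516) or without WT 3 (1.11, limma adjusted p = 0.0612), with 1.10 to 1.37 over single arrays left out. The sign of Nr1d2 turned without KO 3 (−0.017) and without KO 4 (−0.077), within −0.077 to 0.42 over single arrays left out, and none of these was called.

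Without the detection filter, which tests 16593 genes, the calls were 1 of the members, 1 other core clock gene (Csnk1e), and 0 clock output, 0 REV-ERB repressed and 0 systemic cue genes. With array weights (4.80 for KO 3, 0.26 to 1.67 for the others) 2190 of all 8134 genes were called. Among them were 6 of 10 members, 5 of 9 other core clock, 7 of 15 output, 6 of 7 REV-ERB repressed and 6 of 17 cue genes. With the mean of a gene's kept probes 3 members (with Per2) and 3 REV-ERB repressed genes (with Insig2) were called. With median scaling 0 cue genes were called. Without KO 1 and KO 4 together, 2 output genes (Elovl3 and Rgs16) and 0 cue genes were called. With 1 array left out the counts were 1 to 3 members (1 without WT 3, and 3 without WT 4, with Per2), 0 to 1 other core clock genes (1 without KO 1), 0 to 2 output genes (2 without KO 1 or KO 2, 0 without WT 3), 0 to 2 REV-ERB repressed genes (1 without KO 3, WT 2 or WT 4, 0 without WT 3) and 0 to 3 cue genes (3 without KO 1, 0 without KO 2, KO 4, WT 2, WT 3 or WT 4). Over all 8134 genes, 209 were called with the mean of kept probes and 283 without KO 1 and KO 4 together. With KO 1, KO 2, KO 3 or KO 4 left out singly, 518, 137, 47 and 115 of all genes were called. With WT 1, WT 2, WT 3 or WT 4 left out singly, 200, 49, 41 and 66 were called. No pair of members passed in any of 12 alternatives.

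Replicate numbers are shared by both genotypes, but same-numbered arrays did not deviate together (correlations of deviations −0.088 to 0.117), and 2 of 4 KO arrays correlated best with their own number. With a replicate block 2 cue genes were called (Cirbp and Mt1), and the calls of Nr1d1 and Usp2 were kept. Over all genes 207 were called, 92 with the replicate block, 97 with median scaling (14.4% of them higher in KO, against 46.4%), 96 without the detection filter, 2190 with array weights and 41 to 518 with 1 array left out. The causes of these differences were not tested. Dim probes, such as the further Usp2 probes, limit what could be compared.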

Other observations

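Several list genes that did not pass varied widely among the KO livers. The G protein regulator Rgs16, a rhythmic transcript of liver, read 9.16, 6.06, 7.004 and 8.35 in KO livers and 8.14, 8.70, 8.93 and 10.30 in WT livers (log2 fold change −1.37, limma adjusted p = 0.296). Noct, which encodes nocturnin, read 7.85, 9.44, 9.16 and 9.96 in KO and 8.19, 7.73, 8.42 and 8.88 in WT. In both genes KO 1 lay within the range of the WT livers. Upp2 read 10.10, 10.48, 11.61 and 12.02 in KO and 9.73, 10.23, 10.17 and 10.46 in WT, with KO 3 and KO 4 well above the others. KO 3 and KO 4 were also the KO livers with the most Nr1d2 (7.49 and 7.66), Per3 (6.66 and 6.94) and Rora (8.18 and 8.52), and the least Nr1d1 (6.03 and 5.87). Rgs16 and these orderings of single animals were singled out after their values were seen.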
